A study of Homo sapiens with 20 samples.

Results

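The genes described here build and police the mitotic chromosome: 48 genes of the kinetochore, the spindle assembly checkpoint, condensin and the spindle and cytokinesis machinery, chosen by name and sorted by role. They were chosen with earlier results of these data known. Their counts, set below beside the shares of all genes, are therefore not those of an unselected set. A gene was measured by the probe set that names it alone, and where several did, by the one with the highest mean over all arrays. Of the 48 genes, 46 had such a probe set and all 46 passed the filter on low values, among 10834 genes tested in the series. CENPA, the centromeric histone H3 variant, shares its probe set with SLC35F6, and no probe set used here names PTTG1, the securin gene, so both are listed but were not analysed here.

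The samples were HEK293 cells, a human embryonic kidney line. In the Flp-In T-REx HEK293 cells used, doxycycline switches on an integrated transgene, here a fusion of green fluorescent protein and ZFP36 (EGFP-ZFP36). The study calls the control line parental HEK293 cells. ZFP36, also called tristetraprolin, binds AU-rich elements in mRNAs and speeds their decay. Each group held 5 arrays, the cultures having been repeated on 5 days: EGFP-ZFP36 cells induced with 1 μg/ml doxycycline for 16 h, the same cells mock-induced with water, parental cells without the fusion given doxycycline, and parental cells given vehicle. Flasks of 1 treatment were pooled before sorting. Induced cells were sorted for green fluorescence, and fluorescent cells were gated out of the mock-induced sort. The doxycycline flasks of the EGFP-ZFP36 line were also sparser and held more floating and rounded cells than its control flasks. Induction, gate and density therefore cannot be told apart in the comparison of induced with mock-induced cells. The sources used here do not say whether the EGFP-ZFP36 line is 1 clone.

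The kinetochore is the protein structure that joins a centromere to spindle microtubules. Its inner layer sits on centromeric chromatin, its outer layer holds the microtubule through the NDC80 complex, and an unattached kinetochore assembles checkpoint proteins that block the anaphase-promoting complex (APC/C). Condensin, a ring of SMC2 and SMC4 closed by non-SMC subunits, compacts the chromosomes. In proliferating cells most of these genes are transcribed in late S and G2 phase, through promoter elements shared by many of them. In bulk samples, fewer cells making an mRNA and less mRNA per cell cannot be told apart.

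Sequences of both kinds below place these genes in the experiment. The first kind is the sites where ZFP36 itself was crosslinked to their transcripts. The study mapped such sites by PAR-CLIP with a tagged ZFP36 in HEK293 cells, and its site table was used here only in part, so a gene without a site below is not a gene without a site in the study. The part used held 1985 sites, of which 6 lay in 4 of the 48 genes, 2 in 3′ UTRs and 4 in introns. They are shown because ZFP36 recognises the UAUUUAU core. The capitals mark this core as DNA letters on the transcript strand, with the flanking T letters of TTATTTATT where the site has them, and coordinates are on hg19 as the table gives them.
SMC4, 3′ UTR, chr3:160152567-160152589, plus strand: ttaaatttctgggTATTTATcc
NCAPG, 3′ UTR, chr4:17845742-17845764, plus strand: cataacaaaataaTATTTATTt
CENPK, intron, chr5:64828352-64828382, minus strand: ccatactatattaatctttcTTATTTATTg
Both 3′ UTR sites fell in condensin genes, and their 2 transcripts differ in the results below: SMC4 fell after induction, whereas NCAPG differed by −0.08 on the log2 scale and did not pass the test. The other 3 sites, an intron of SMC4 and 2 introns of ASPM, lack the 7-base core.

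The second kind is the promoter. RefSeq promoter windows on GRCh38.p14 were matched by symbol for 40 of the 48 genes, leaving out BUB3, TTK, AURKA, BIRC5, CENPM, KNL1, TPX2 and RACGAP1. In the 250 bases before the start, 2 motifs were searched on both strands: the cell cycle homology region (CHR, TTTGAA), through which the DREAM and MuvB complexes time G2 and M phase genes, and the CCAAT box (CCAAT), bound by NF-Y. A CHR stood in 18 of the 40 windows (45.0%) and in 13.6% of all 27305 promoters, and a CCAAT box stood in 26 (65.0%) and in 33.0% of all promoters. Both motifs together stood in 13 of 40 windows (32.5%) and in 4.85% of all promoters. The 100 bases before the start are shown for 2 genes that fell and 2 that rose after induction, all carrying a CHR, with motifs of either kind on either strand in capitals.
ANLN, fell, chr7:36389762-36389861, plus strand: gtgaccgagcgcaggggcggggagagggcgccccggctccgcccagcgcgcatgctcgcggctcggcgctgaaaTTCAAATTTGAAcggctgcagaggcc
SMC4, fell, chr3:160399550-160399649, plus strand: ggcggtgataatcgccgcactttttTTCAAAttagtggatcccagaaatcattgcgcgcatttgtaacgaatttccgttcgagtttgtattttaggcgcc
CDCA8, rose, chr1:37692416-37692515, plus strand: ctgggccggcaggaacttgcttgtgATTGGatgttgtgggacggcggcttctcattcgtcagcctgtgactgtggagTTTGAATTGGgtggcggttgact
ESPL1, rose, chr12:53268199-53268298, plus strand: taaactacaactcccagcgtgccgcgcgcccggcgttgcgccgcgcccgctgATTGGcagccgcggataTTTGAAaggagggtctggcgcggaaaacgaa
In ANLN a CHR in each orientation stood side by side, and in CDCA8 the CHR overlapped a reversed CCAAT box. A CHR stood in 2 of 5 matched genes that fell (40.0%), 5 of 16 that rose (31.2%) and 10 of 17 not passed (58.8%). A CCAAT box stood in 2, 11 and 11 of them, in the same order (40.0%, 68.8% and 64.7%). Both motifs together stood in 0, 5 and 7 (0.0%, 31.2% and 41.2%). Each motif was thus present on every side of the results that follow, but the 2 together were not. The windows of SMC2, which fell, and of CENPI, AURKB and SGO1, which did not pass, lay wholly inside the outermost annotated bounds of the gene. None of these windows held a CHR, so the shares by direction rest partly on sequence inside genes. Whether the motifs bear on the direction was not tested.

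The first comparison asked how the mRNAs changed when EGFP-ZFP36 was induced. Of the 46 genes, 6 fell and 20 rose in induced against mock-induced cells (limma, Bonferroni-adjusted p under 0.01 over all genes tested), and 20 did not pass. The same rule called 23.1% of all tested genes as fallen and 28.8% as risen. The median log2 difference was 0.40 for the listed genes and 0.20 for all genes. In 40 of the 46 genes the induced and mock-induced arrays did not overlap, beside 80.0% of all genes. The split depended on the scale. The poly-A spike-in level was 8.80 ± 0.24 on induced arrays, against 8.43 ± 0.18 on mock-induced ones (SD, n = 5 each, exact two-sided permutation p = 0.0238). With each array centred on those transcripts, 10 of the 46 genes fell and 7 rose, beside 30.0% and 15.7% of all genes. On that scale the median was 0.04 for the listed genes and −0.16 for all genes. The poly-A level also differed by 0.36 between parental cells with doxycycline (8.75) and with vehicle (8.39, n = 5 each, exact permutation p = 0.302). Parental vehicle arrays ran from 7.68 to 9.22. In parental cells poly-A centring moved the median difference of all genes from 0 to −0.36. What moved the poly-A level in either line was not tested.

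**Figure D1:**
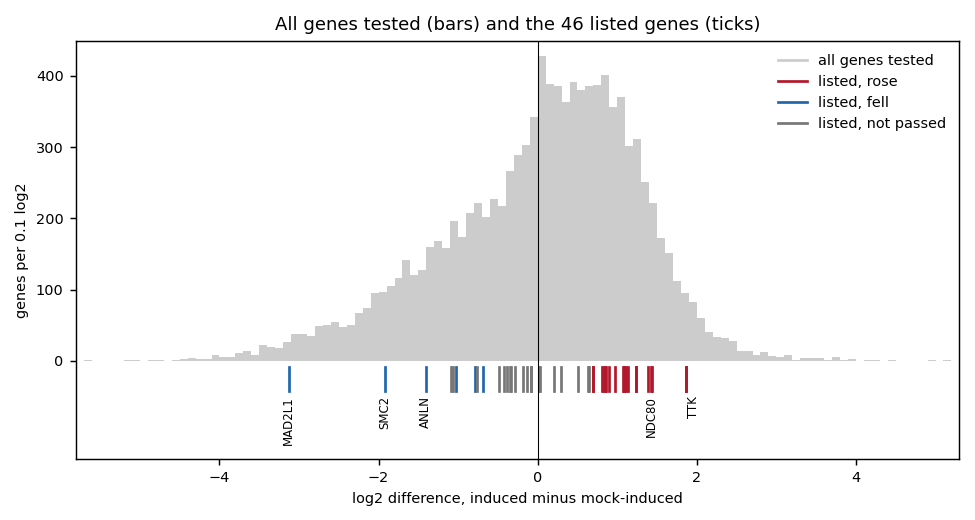
Histogram of the log2 difference (induced minus mock-induced; x axis) of all 10834 genes tested, in genes per 0.1 log2 (y axis), with a tick under the axis for each of the 46 listed genes, coloured by whether it rose, fell or did not pass. The listed genes spread from −3.13 (MAD2L1) to 1.87 (TTK and CENPO), with a median of 0.40 beside 0.20 for all genes.

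The members of single complexes moved in opposite directions. MAD2L1 fell while 4 other checkpoint genes rose, the SMC2 and SMC4 core of condensin fell while NCAPD2 and NCAPH rose, and within the MIS12 complex MIS12 fell while DSN1 rose. The opposite signs in these complexes were also found with poly-A centring, where MAD2L1, MIS12, SMC2 and SMC4 passed as lower and TTK, MAD1L1 and DSN1 as higher, whereas NCAPD2 (0.75) and NCAPH (0.73) kept their sign without passing. Across every alternative run (other scales, filters, probe set choices, models and arrays left out), 7 of the 26 genes called passed in the same direction each time: MAD2L1, SMC2 and SMC4 as lower, and TTK, CENPO, NDC80 and DSN1 as higher.

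**Figure D2:**
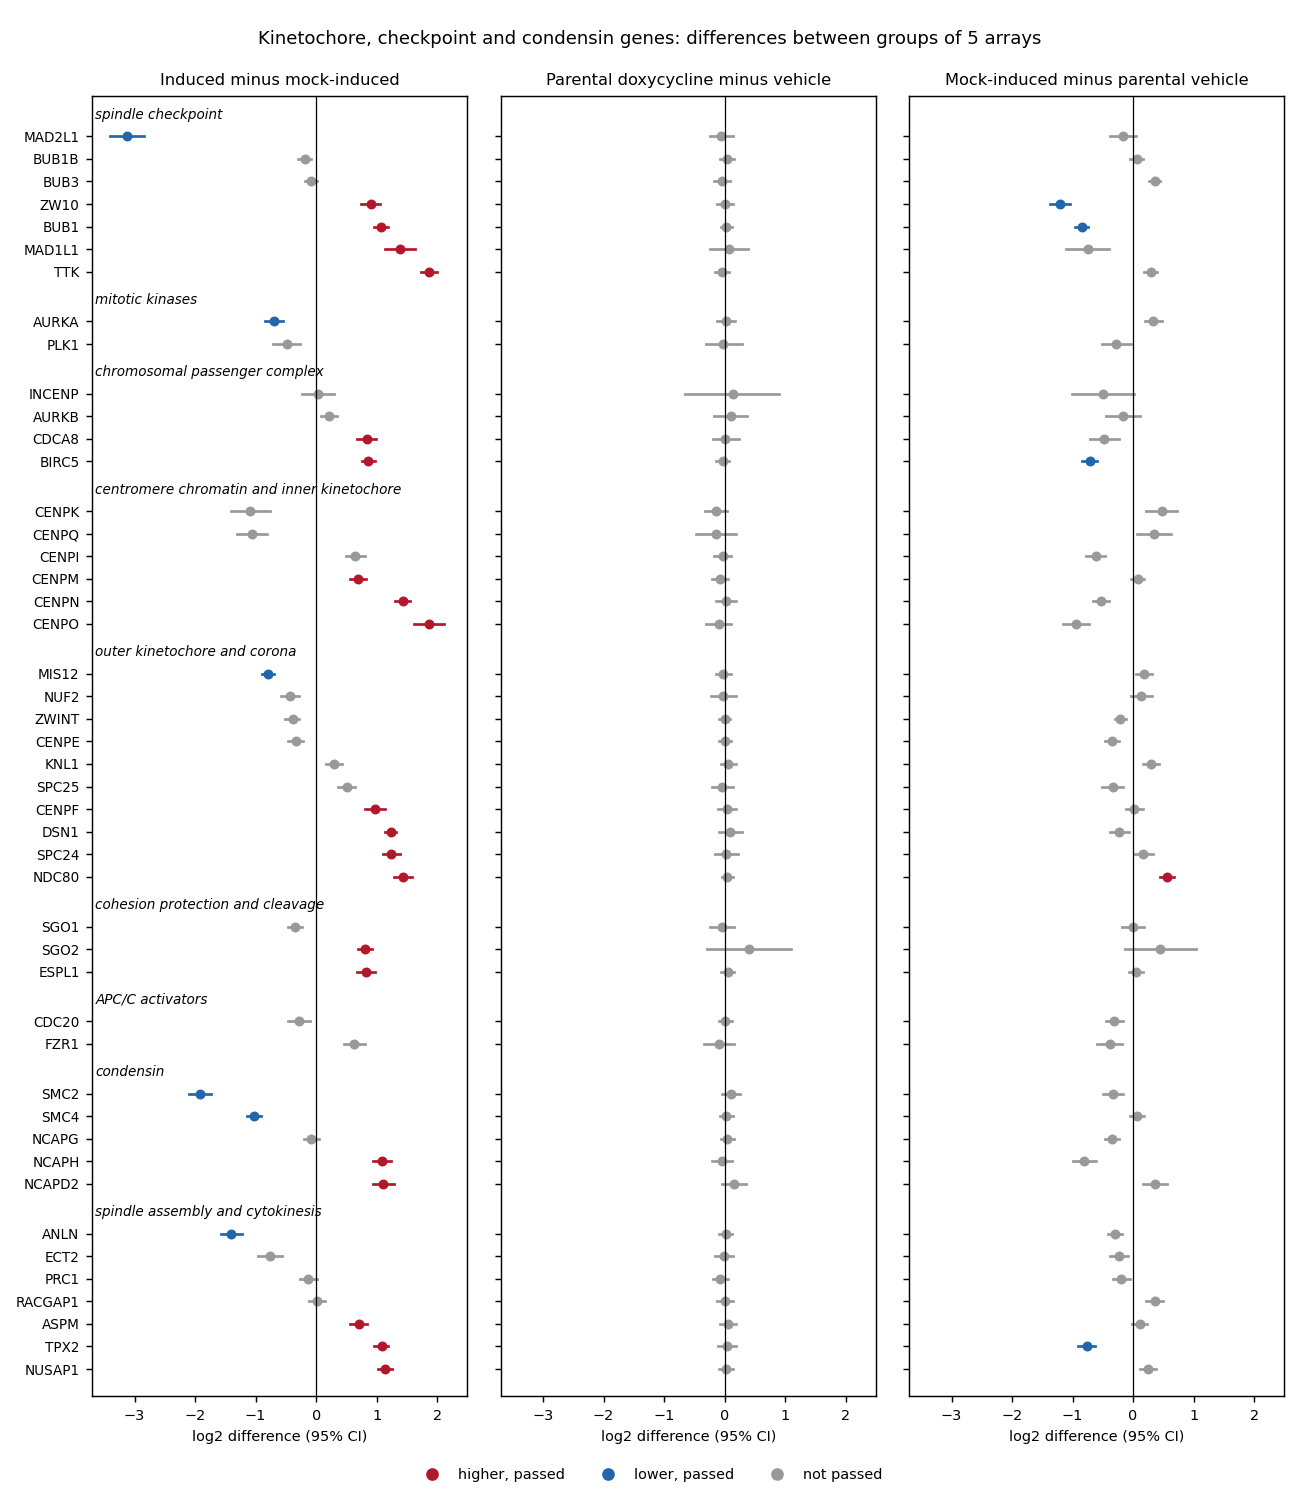
Log2 differences with 95% confidence intervals (x axes) of the 46 genes, grouped by role (rows), for induced minus mock-induced cells, parental cells with doxycycline minus vehicle, and mock-induced minus parental vehicle cells, 5 arrays per group. Red and blue mark genes that passed as higher and lower, and grey those that did not pass: 26, 0 and 5 genes passed in the 3 panels.

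Among the 7 checkpoint genes, 1 fell and 4 rose. MAD2L1 encodes MAD2, the checkpoint protein that changes fold to capture CDC20 at unattached kinetochores. It read 10.71, 10.69, 11.22, 10.53 and 10.85 (log2 GCRMA level) on the 5 induced arrays, against 13.73, 13.99, 14.07, 13.74 and 14.10 on the mock-induced arrays. Every induced array lay over 2 log2 units below every other array of the series, parental arrays included. The difference was −3.13 (SE 0.13, 8.73-fold lower, limma, Bonferroni-adjusted p = 9.63e-07). It was the largest difference of either sign among the 46 genes.

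TTK, also known as MPS1, is the kinase that starts checkpoint signalling, and it moved the other way. Its levels were 13.17, 13.10, 13.31, 13.10 and 13.20 on induced arrays and 11.38, 11.22, 11.42, 11.30 and 11.24 on mock-induced arrays, groups that lie far apart. It rose 3.64-fold (log2 difference 1.87, SE 0.06, limma, Bonferroni-adjusted p = 6.44e-08). MAD1L1 encodes MAD1, the kinetochore-bound partner that loads MAD2. It read 8.25, 8.27, 7.98, 8.31 and 7.96 in induced cells and 6.81, 7.08, 6.55, 6.57 and 6.84 in mock-induced cells, without overlap. MAD1L1 thus rose by 1.38 log2 units (SE 0.11, limma, Bonferroni-adjusted p = 0.00122) where its partner fell. BUB1, a kinase that marks the inner centromere, averaged 11.35 ± 0.05 on induced and 10.28 ± 0.08 on mock-induced arrays and rose by 1.07 (limma, Bonferroni-adjusted p = 3.98e-06). With all 5 BUB1 probe sets averaged, those under the filter included, the difference was 0.57 and did not pass. The other BUB1 probe set above the filter was higher by 1.79, at 6.67 in induced and 4.88 in mock-induced cells, without passing. ZW10, a subunit of the complex that brings dynein to the kinetochore, averaged 9.62 ± 0.06 and 8.72 ± 0.16 in the same order and rose by 0.90 (limma, Bonferroni-adjusted p = 0.00125). The remaining checkpoint genes, BUB1B (BUBR1, a subunit of the mitotic checkpoint complex) and BUB3 (its WD40 partner), differed by −0.19 and −0.09 and did not pass.

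**Figure D3:**
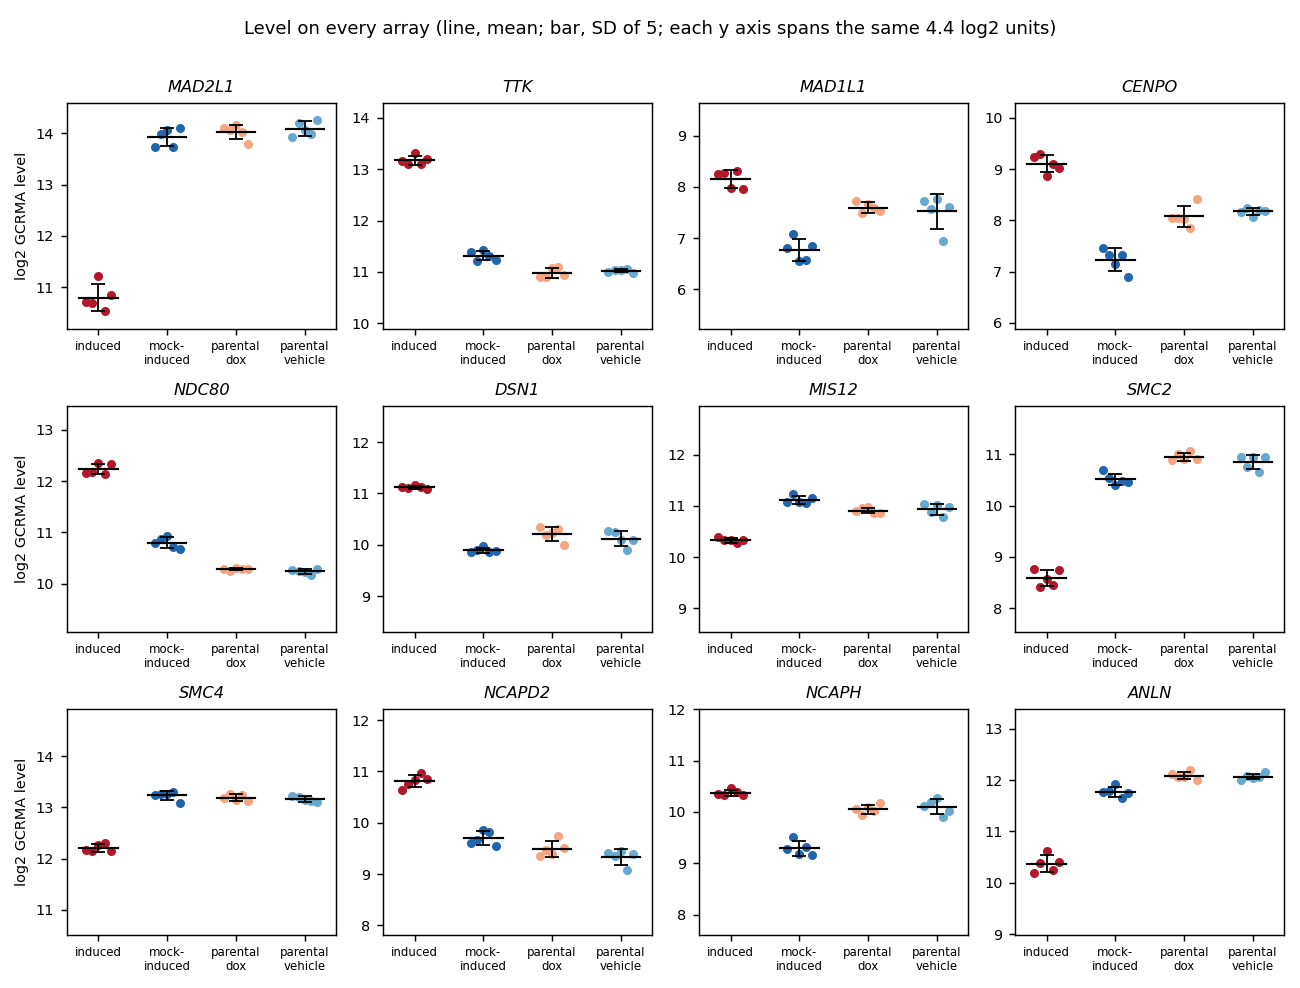
Log2 GCRMA level (y axes, each spanning the same range) on every array for 12 of the genes, by group (x axes: induced, mock-induced, parental with doxycycline, parental with vehicle); points are arrays, lines group means and bars SDs of 5 arrays. MAD2L1, SMC2, SMC4, MIS12 and ANLN are lower on all induced arrays than on all mock-induced arrays, and the other 7 genes are higher.

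Of the mitotic kinases outside the passenger complex, 1 fell and 1 did not pass. AURKA, the Aurora kinase of centrosomes and spindle poles, read 12.08, 11.84, 11.96, 11.99 and 11.82 in induced cells and 12.62, 12.61, 12.79, 12.63 and 12.51 in mock-induced cells, with no overlap. It fell by 0.69 on the log2 scale (SE 0.07, limma, Bonferroni-adjusted p = 0.00725). That call is close to the threshold and was lost when any 1 of 9 arrays, all but induced replicate 1, was left out, where the difference stayed between −0.72 and −0.65. PLK1, the Polo kinase of mitotic entry and kinetochore attachment, averaged 6.02 ± 0.18 and 6.51 ± 0.16 in induced and mock-induced cells, groups without overlap, and its difference of −0.49 (95% CI −0.72 to −0.27) did not pass.

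Of the chromosomal passenger complex, which corrects wrong attachments and later guides cytokinesis, both localisation subunits measured rose. BIRC5 (survivin) read 13.00, 12.97, 12.89, 13.05 and 12.85 in induced cells and 12.05, 12.11, 12.17, 12.11 and 12.00 in mock-induced cells, and rose by 0.86 (SE 0.05, limma, Bonferroni-adjusted p = 6e-05). CDCA8 (borealin) read 10.43, 10.39, 10.37, 10.37 and 10.20 against 9.65, 9.51, 9.63, 9.47 and 9.31. The lowest induced array of each gene was above the highest mock-induced one. CDCA8 rose by 0.84 (SE 0.07, limma, Bonferroni-adjusted p = 0.00184), a call lost without any 1 of mock-induced replicates 2 and 4 or induced replicates 1, 2, 3 and 4, at differences of 0.82 to 0.84. AURKB, the catalytic subunit, and INCENP, its scaffold, differed by 0.21 (95% CI 0.08 to 0.34) and 0.03 (95% CI −0.24 to 0.30) and did not pass. INCENP averaged 5.12 ± 0.20 and 5.09 ± 0.23, and its arrays overlapped.

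In the inner kinetochore, the centromere-associated network that rests on CENPA nucleosomes, 3 of 6 genes rose and none of the 6 passed as lower. CENPO, a subunit of the module that also holds CENPQ, read 9.23, 9.29, 8.87, 9.10 and 9.02 in induced cells and 7.46, 7.33, 7.14, 7.33 and 6.89 in mock-induced cells. It rose 3.66-fold (log2 difference 1.87, SE 0.11, limma, Bonferroni-adjusted p = 5.86e-05), on a par with TTK. CENPN, which binds CENPA nucleosomes directly, read 12.46, 12.47, 12.51, 12.66 and 12.58 against 11.15, 11.11, 11.10, 11.19 and 10.99, a rise of 1.43 (SE 0.05, limma, Bonferroni-adjusted p = 5.29e-07). This rise rests on 1 probe set, since both other CENPN probe sets differed by −0.30 and −0.22 and did not pass. CENPM, a small subunit that lies with CENPI, read 11.38, 11.38, 11.32, 11.58 and 11.25 against 10.65, 10.78, 10.70, 10.66 and 10.63 and rose by 0.69 (SE 0.06, limma, Bonferroni-adjusted p = 0.00347), without overlap. The CENPM call was lost when any 1 array was left out except induced replicates 4 and 5, at differences of 0.68 to 0.72. Of the rest, CENPI was higher by 0.65 (95% CI 0.49 to 0.80), and CENPK and CENPQ were lower by −1.09 (95% CI −1.41 to −0.77) and −1.06 (95% CI −1.31 to −0.81), each without overlap between groups and without passing. With poly-A centring CENPK and CENPQ passed as lower. The intronic ZFP36 site printed above lies in CENPK, and whether it bears on the level of CENPK was not tested.

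Within the outer kinetochore and corona, 4 of 10 genes rose, 1 fell and 5 did not pass. In all 10 the induced and mock-induced arrays did not overlap, beside 80.0% of all genes. The NDC80 complex is a rod of 4 subunits, with the NDC80 and NUF2 pair at the microtubule end and the SPC24 and SPC25 pair at the chromosome end. NDC80 read 12.16, 12.18, 12.36, 12.14 and 12.33 in induced cells and 10.79, 10.87, 10.93, 10.72 and 10.68 in mock-induced cells and rose by 1.44 (SE 0.07, limma, Bonferroni-adjusted p = 3.37e-06). Its dimer partner NUF2 differed the other way, at 11.16 ± 0.16 and 11.59 ± 0.03, by −0.43 (95% CI −0.58 to −0.28), and did not pass. SPC24 read 10.68, 10.68, 10.56, 10.69 and 10.69 against 9.37, 9.63, 9.35, 9.44 and 9.31 and rose by 1.24 (SE 0.06, limma, Bonferroni-adjusted p = 1.05e-05). SPC25 was higher by 0.51 (95% CI 0.36 to 0.65) and did not pass. The 2 subunits that lead in this complex are thus 1 from each pair.

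The MIS12 complex joins the NDC80 complex to the inner kinetochore, and DSN1 and MIS12 are 2 of its subunits. DSN1 read 11.13, 11.10, 11.17, 11.13 and 11.09 in induced cells and 9.86, 9.90, 9.98, 9.86 and 9.88 in mock-induced cells, the tightest groups of those printed. It rose by 1.23 (SE 0.04, limma, Bonferroni-adjusted p = 9.62e-08), whereas MIS12 averaged 10.33 ± 0.04 and 11.12 ± 0.07 and fell by 0.79 on the log2 scale (limma, Bonferroni-adjusted p = 5.21e-05). KNL1, the scaffold that docks the BUB proteins, and its partner ZWINT differed by 0.29 and −0.39 and did not pass. Of the corona proteins, CENPF rose by 0.97 (limma, Bonferroni-adjusted p = 0.000763) on its brightest probe set, another bright CENPF probe set differing by 0.29 without passing. CENPE, the kinesin that moves chromosomes to the spindle equator, differed by −0.34 (95% CI −0.47 to −0.21) and did not pass.

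Sister chromatids are held together until separase cuts cohesin, and shugoshins shield centromeric cohesin before that. ESPL1, the separase gene, read 11.52, 11.48, 11.47, 11.74 and 11.42 in induced cells and 10.67, 10.72, 10.73, 10.80 and 10.56 in mock-induced cells, and rose by 0.83 (SE 0.07, limma, Bonferroni-adjusted p = 0.00119). SGO2 read 11.51, 11.60, 11.65, 11.59 and 11.71 against 10.85, 10.80, 10.87, 10.80 and 10.67 and rose by 0.81 (SE 0.05, limma, Bonferroni-adjusted p = 0.000162). Neither gene overlapped between the groups on these probe sets. A second SGO2 probe set, at 10.78 in induced and 10.43 in mock-induced cells, differed by 0.35 and did not pass. SGO1 was lower by −0.35 (95% CI −0.47 to −0.23) without passing, while its dimmer probe set fell by 1.88 on the log2 scale, at 4.82 in induced and 6.70 in mock-induced cells. The APC/C activators CDC20, the target of the checkpoint, and FZR1 (CDH1), which takes over in late mitosis and G1, differed by −0.28 (95% CI −0.46 to −0.10) and 0.63 (95% CI 0.46 to 0.80), and neither passed.

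In condensin, 2 subunits fell, 2 rose and 1 did not pass. SMC2, 1 of the 2 coiled-coil ATPases, read 8.77, 8.42, 8.56, 8.46 and 8.74 in induced cells and 10.69, 10.53, 10.40, 10.48 and 10.47 in mock-induced cells. Its induced arrays stood apart from all 15 others, and it fell 3.79-fold (log2 difference −1.92, SE 0.08, limma, Bonferroni-adjusted p = 1.49e-06). SMC4, the other ATPase and the gene with a ZFP36 site in its 3′ UTR, averaged 12.20 ± 0.08 on induced and 13.23 ± 0.08 on mock-induced arrays and fell by 1.03 on the log2 scale (SE 0.06, limma, Bonferroni-adjusted p = 1.81e-05). A second SMC4 probe set differed by −0.02 and did not pass. Of the 3 regulatory subunits, NCAPD2 and NCAPH rose and NCAPG did not pass. NCAPD2 read 10.64, 10.76, 10.83, 10.97 and 10.86 against 9.60, 9.67, 9.86, 9.82 and 9.55, a rise of 1.11 (SE 0.08, limma, Bonferroni-adjusted p = 0.000314). NCAPH, the kleisin that closes the ring, read 10.35, 10.34, 10.47, 10.38 and 10.34 against 9.27, 9.51, 9.19, 9.32 and 9.16, a rise of 1.09 (SE 0.07, limma, Bonferroni-adjusted p = 7.68e-05). NCAPG, which also carries a 3′ UTR site, averaged 11.83 ± 0.07 in induced and 11.91 ± 0.09 in mock-induced cells, groups that overlapped, and its interval ran from −0.20 to 0.04.

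For the spindle and cytokinesis genes the count was 1 lower, 3 higher and 3 not passed. ANLN encodes anillin, the scaffold of the contractile ring. It read 10.19, 10.39, 10.62, 10.24 and 10.41 in induced cells and 11.76, 11.79, 11.92, 11.66 and 11.74 in mock-induced cells, more than 1 log2 unit apart throughout, and fell 2.65-fold (log2 difference −1.40, SE 0.08, limma, Bonferroni-adjusted p = 4.01e-05). NUSAP1, a microtubule-bundling protein, read 14.17, 14.23, 14.18, 14.26 and 14.27 against 13.02, 13.20, 13.16, 13.08 and 12.99 and rose by 1.13 (SE 0.05, limma, Bonferroni-adjusted p = 3.2e-06). TPX2, which activates AURKA on the spindle, read 11.48, 11.47, 11.36, 11.57 and 11.39 against 10.32, 10.43, 10.45, 10.35 and 10.33. It rose by 1.08 (SE 0.05, limma, Bonferroni-adjusted p = 5.83e-06), in the direction opposite to its kinase. ASPM, a spindle pole protein, rose by 0.70 (limma, Bonferroni-adjusted p = 0.0039), a call lost without any 1 array except mock-induced replicate 4 and induced replicate 1. ECT2, the exchange factor that activates RhoA at the cleavage site, was lower by −0.76 (95% CI −0.96 to −0.57) without passing. RACGAP1, its partner in centralspindlin, and PRC1, the bundler of the central spindle, differed by 0.02 (95% CI −0.12 to 0.15) and −0.13 (95% CI −0.26 to 0.01), and neither passed.

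Several genes carry more than 1 probe set, and these do not always give 1 answer. Above the filter, 76 probe sets named 1 of the 46 genes, 21 genes had more than 1, and in 0 of them did probe sets pass in opposite directions. MAD2L1 fell on all 3 of its probe sets, with log2 differences of −3.46, −3.13 and −2.98, and SMC2 fell on both of its own, at −1.92 and −3.07. BUB3 differed most between its probe sets. The brightest, at 14.32 in induced and 14.41 in mock-induced cells, differed by −0.09, a pair fell, at −0.77 and −0.78, and the dimmest fell, at −3.14 (4.79 in induced and 7.93 in mock-induced cells, limma, Bonferroni-adjusted p = 7.71e-06 over 18639 probe sets). Which transcript forms these probe sets read was not examined here.

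**Figure D4:**
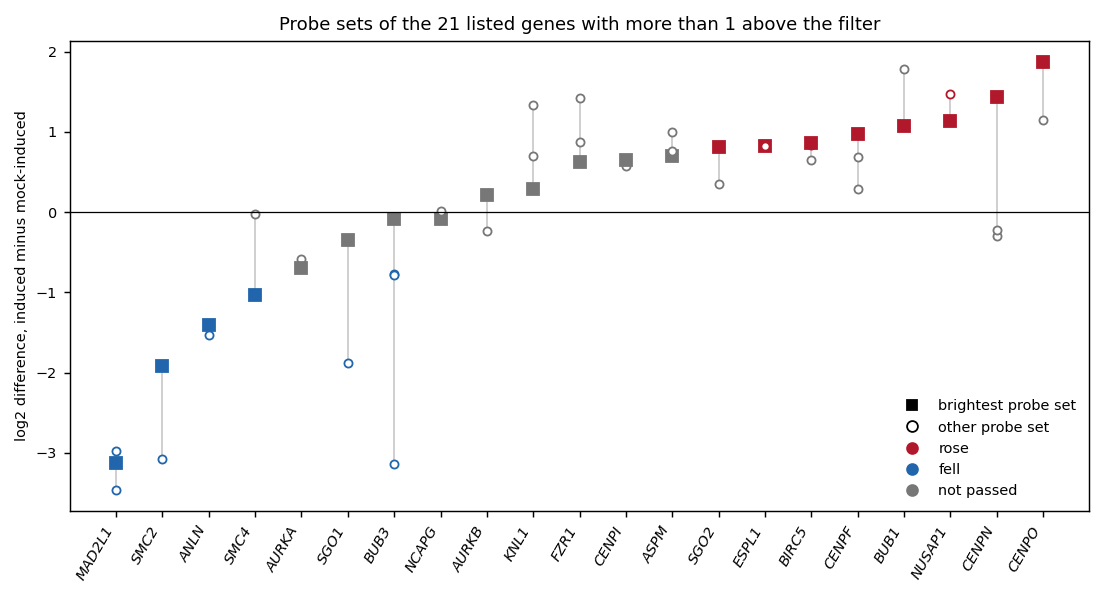
Log2 difference between induced and mock-induced cells (y axis) for each probe set of the 21 genes with more than 1 above the filter (x axis); squares are the brightest probe set of a gene, open circles the others, and colour shows whether it passed with p-values adjusted over 18639 probe sets. BUB3, CENPN, SGO1, SMC2, KNL1 and SMC4 have probe sets over 1 log2 unit apart, and AURKA and ASPM, called over genes, did not pass over probe sets.

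The second comparison asked whether doxycycline itself moved these genes, and used parental cells that lack the fusion. Of the 46 genes 0 passed (limma, Bonferroni-adjusted p under 0.01), and 0% of all genes tested did. At an unadjusted p under 0.05 the count was 0 of 46, beside 2.22% of all genes, and the groups separated in 0 of the 46, beside 0.203% of all genes. The differences ran from −0.14 (CENPK and CENPQ) to 0.40 (SGO2). MAD2L1 averaged 14.03 ± 0.14 with doxycycline, against 14.09 ± 0.14 with vehicle, a difference of −0.06 (95% CI −0.25 to 0.13). SMC2 differed by 0.10 (95% CI −0.05 to 0.26) and TTK by −0.05 (95% CI −0.16 to 0.07). The intervals of these genes exclude changes of the size seen after induction. SGO2 varied more, since 1 vehicle array read 9.20 and the others 10.48 to 10.99, and its interval ran from −0.29 to 1.10.

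The response to doxycycline was then tested for a difference between the 2 lines (interaction term, limma, Bonferroni-adjusted p under 0.01). It differed for 24 of the 46 genes, more negative in the EGFP-ZFP36 line for 6 and more positive for 18, beside 22.1% and 25.8% of all genes. MAD2L1 (−3.07), SMC2 (−2.02), CENPO (1.97) and TTK (1.91) led on either side, and these 4 alone also passed with poly-A centring, beside 9.17% of all genes lower and 4.64% higher. With centring on hybridization controls 8 passed, 4 in each direction, beside 19.4% lower and 10.6% higher among all genes. The median interaction difference of all genes was 0.20 in the main run and with poly-A centring, and 0.01 with hybridization control centring. Poly-A levels had an SD of 0.63 on parental vehicle arrays, a spread that poly-A centring passes on to every gene.

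The third comparison set the EGFP-ZFP36 line without induction against its parent, both without doxycycline. The study passaged these lines at different dilutions and grew them for different times before treatment. Line and culture therefore cannot be told apart in the interaction or in this comparison. The interaction also holds the induced and mock-induced arrays, so induction, gate and density cannot be told apart in it either. Here 4 of the 46 genes were lower in mock-induced cells and 1 was higher, beside 10.9% and 13.2% of all genes. With poly-A centring 0 of the 46 passed, beside 2.67% lower and 5.98% higher among all genes. ZW10 averaged 8.72 ± 0.16 in mock-induced and 9.94 ± 0.09 in parental vehicle cells (log2 difference −1.21, limma, Bonferroni-adjusted p = 0.000141). BUB1 was lower by −0.85, TPX2 by −0.77 and BIRC5 by −0.72. NDC80 was higher by 0.56, at 10.80 ± 0.10 and 10.24 ± 0.04 (limma, Bonferroni-adjusted p = 0.00906), a call lost when any 1 array was left out. The TPX2 call was lost without any 1 of mock-induced replicates 1, 2, 4 and 5 or parental vehicle replicates 2 and 3, at −0.78 to −0.76. This comparison and the first share the mock-induced arrays, so the levels of all 5 genes are given side by side. ZW10 averaged 9.62 ± 0.06 in induced, 8.72 ± 0.16 in mock-induced and 9.94 ± 0.09 in parental vehicle cells, and NDC80 averaged 12.23 ± 0.10, 10.80 ± 0.10 and 10.24 ± 0.04. BUB1 averaged 11.35 ± 0.05 in induced, 10.28 ± 0.08 in mock-induced and 11.13 ± 0.05 in parental vehicle cells. BIRC5 averaged 12.95 ± 0.08, 12.09 ± 0.06 and 12.81 ± 0.08, and TPX2 averaged 11.45 ± 0.08, 10.38 ± 0.06 and 11.15 ± 0.13, in the same order. The mock-induced mean was the lowest of the 3 for ZW10, BUB1, BIRC5 and TPX2, and the middle one for NDC80. Genes that rose after induction without passing here went either way. The mock-induced mean was also the lowest for NCAPH (10.38, 9.29 and 10.10, in the same order), MAD1L1 (8.15, 6.77 and 7.53) and CENPO (9.10, 7.23 and 8.17). It was the middle one for TTK (13.18, 11.31 and 11.02) and NCAPD2 (10.81, 9.70 and 9.33). MAD2L1, SMC4 and MIS12, which fell after induction, differed by −0.17, 0.07 and 0.18 between mock-induced and parental vehicle cells, and none of the 3 passed. SMC2, ANLN and AURKA, the other genes that fell, differed by −0.33, −0.30 and 0.33 between the same groups, also without passing.

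Neighbouring machinery was read from lists of related genes, which were also chosen with earlier results of these data known. Their counts stand beside all genes tested, of which 23.1% fell and 28.8% rose after induction. Of 19 further kinetochore genes tested, 6 fell and 4 rose after induction, with a median difference of 0.02. SPDL1 (spindly), the dynein adaptor of the corona, fell by 2.00 on the log2 scale and SKA2, of the microtubule-tracking SKA complex, by 1.85, whereas CENPB, which binds a centromeric repeat, rose by 1.62 and PMF1, another MIS12 complex subunit, by 1.40. Of 16 cohesin and condensin II genes, 8 fell and 2 rose, with a median of −0.55. With probe sets averaged 5 fell, beside 23.3% of all genes. PDS5B, a cohesin regulator, fell by 3.25 and STAG2, a cohesin ring subunit, by 2.60, while CDCA5 (sororin) rose by 2.11 and NCAPH2, the condensin II kleisin, by 1.40. The APC/C list had 5 lower and 7 higher of 16, among them ANAPC10 (−2.36) and the ubiquitin-conjugating enzyme gene UBE2S (−2.13) on one side and ANAPC4 (1.45) and ANAPC7 (1.30) on the other. ANAPC7 turned to −0.90 when probe sets ending in _s_at or _x_at were left out.

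Among 21 further spindle and cytokinesis genes, 5 fell and 8 rose, with a median of 0.07. With poly-A centring 2 rose and 8 fell, beside 15.7% and 30.0% of all genes. HMMR, a spindle assembly factor, fell 11.4-fold and PBK, a mitotic kinase, 5.35-fold, while NUMA1, which anchors spindle poles to the cortex, rose 3.62-fold and HAUS8, of the augmin complex, 2.34-fold. Replication licensing and fork genes, which peak earlier in the cycle, rose in 19 of 27 cases and fell in 3, with a median of 0.94. MCM5 (1.85) and GINS2 (1.81) of the replicative helicase rose most and the clamp loader genes RFC5 (−1.58) and RFC3 (−1.50) fell most. With poly-A centring 9 of the 27 rose, beside 15.7% of all genes.

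Arrays of 1 group correlated at 0.994 to 0.9987, lowest among parental vehicle arrays. Replicate 4 of that group had the highest hybridization control level (12.4) and actin 3′ minus 5′ signal (2.18) of the 20 arrays. It enters no comparison of induced with mock-induced cells. Without it the interaction gave 24 genes (6 lower, 18 higher), beside 21.9% and 26.1% of all genes. Mock-induced against parental vehicle cells then gave 4 (4 lower, 0 higher), beside 10.5% and 12.1%. Doxycycline against vehicle in parental cells gave 0. The number of arrays limits the precision. Of the HEK293 markers listed, 6 of 7 with a probe set were above the filter, and LHX1, a kidney marker, was near the lowest value of the files (2.19). Their summed level was 15.59 to 15.70 in induced, 15.19 to 15.29 in mock-induced, 14.57 to 14.70 in parental doxycycline and 14.33 to 14.70 in parental vehicle cells, and 3 of the 6 rose with induction. PAX2, a kidney transcription factor gene, rose by 2.10 and NEFM, a neurofilament gene, by 1.93. NEFM read 5.81 in induced, 3.87 in mock-induced and 12.27 in parental vehicle cells. None of the 5 blood cell markers with a probe set was above the filter. Of 9 endothelial and fibroblast markers, COL3A1 and COL1A1 were above it and rose with induction by 3.08 and 2.31, though neither was above it with probe sets averaged. The summed level of that list was 9.62 to 9.89 in induced, 7.31 to 7.70 in mock-induced, 8.44 to 8.94 in parental doxycycline and 8.65 to 8.95 in parental vehicle cells, while PECAM1, VWF and CDH5 stayed at 2.19 to 2.44 on average. Actin, whose 3′ minus 5′ signal grows as RNA degrades, gave 1.31 ± 0.13 on induced arrays, against 1.52 ± 0.14 on mock-induced ones (SD, n = 5 each, exact two-sided permutation p = 0.0476). The part of collagen-expressing cells or RNA quality in the results was not tested. ZFP36 itself, on its only probe set, averaged 5.42 ± 0.49 in induced and 5.36 ± 0.43 in mock-induced cells. Whether that probe set lies within the fusion transcript was not examined, so it does not check the labels.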

How the data were processed

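The deposited values are log2 levels from 20 Affymetrix Human Genome U133 Plus 2.0 arrays, which the authors normalized with GCRMA, in a version that the sources used here do not give; they cover 50441 probe sets between 2.19 and 16.6, with 40.7% at the lowest value. Groups came from the sample labels. The platform annotation named the probe sets, and in it 38070 carry 1 gene. The brightest over 20 arrays stood for a gene, and the test covered genes whose mean passed 4.5 in 1 or more groups (10834). limma 3.58.1 in R 4.3.3 was fitted on the groups compared (all 4 groups for the interaction), with calls made at a Bonferroni-adjusted p under 0.01, which is the threshold of the study. The script was tested on simulated data. A level compares 1 probe set between arrays, not genes with each other. The 48 genes and all lists were chosen with earlier results of these data known. Values on every array are given for up to 3 genes of each role with the largest difference among those that passed, and the 2 largest falls and rises that passed for the other lists. Alternatives were the mean of all probe sets, no probe sets ending in _s_at or _x_at, no filter, centring on 18 hybridization or 24 poly-A control probe sets, Benjamini-Hochberg adjustment under 0.05, a separate spread per group, all 20 arrays in 1 model, a replicate block, a mean-variance trend and leaving out each array. Whether arrays came from separate cultures rests on the study's statement that the experiment was repeated on 5 days. ZFP36 site sequences came from the study's site table, used here in part, with no other value taken from it. Promoters came from RefSeq (the first entry of each symbol).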

Additional observations from a re-analysis of the deposited data

Results flagged for a closer look

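The response to doxycycline differed between the EGFP-ZFP36 and the parental line for 24 genes by a test of the difference itself (interaction term, limma, Bonferroni-adjusted p under 0.01). For the EGFP-ZFP36 line this response includes induction, sort gate and flask density, which cannot be told apart. It was more negative in the EGFP-ZFP36 line for MAD2L1 (−3.07), SMC2 (−2.02), ANLN (−1.42), SMC4 (−1.05), MIS12 (−0.76) and AURKA (−0.71), on the log2 scale. It was more positive for CENPO (1.97), TTK (1.91), CENPN (1.40), NDC80 (1.39), SPC24 (1.21), DSN1 (1.14), NCAPH (1.14), NUSAP1 (1.12), BUB1 (1.04), TPX2 (1.04), NCAPD2 (0.95), CENPF (0.94), ZW10 (0.90), BIRC5 (0.89), ESPL1 (0.78), CENPM (0.77), CENPI (0.68) and ASPM (0.64).

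A single array lay far from the other 4 of its group in 14 of 184 combinations of gene and group, where chance flags about 1 in 20. In induced cells these were CDCA8 in replicate 5 (10.20, others 10.37 to 10.43), SPC24 in replicate 3 (10.56, others 10.68 to 10.69), KNL1 in replicate 5 (11.11, others 10.86 to 10.89) and ZWINT in replicate 4 (13.16, others 12.95 to 12.99). In mock-induced cells they were SPC25 in replicate 2 (11.49, others 11.25 to 11.31) and SMC4 in replicate 5 (13.09, others 13.25 to 13.30). Parental cells with doxycycline had INCENP in replicate 2 (6.90, others 5.08 to 5.59) and CENPI in replicate 4 (8.97, others 8.77 to 8.81). Parental cells with vehicle had FZR1 in replicate 1 (6.73, others 6.24 to 6.29), SGO2 in replicate 3 (9.20, others 10.48 to 10.99), MAD1L1 in replicate 4 (6.94, others 7.57 to 7.77), SGO1 in replicate 4 (7.53, others 7.12 to 7.19), NCAPD2 in replicate 4 (9.07, others 9.36 to 9.45) and ECT2 in replicate 5 (12.51, others 12.30 to 12.32).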

How the results depend on the processing

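Of the 46 genes, 6 fell and 20 rose in induced against mock-induced cells. Changed, fallen and risen genes numbered 17, 10 and 7 with poly-A centring (30.0% of all genes fell and 15.7% rose). They numbered 41, 16 and 25 with Benjamini-Hochberg adjustment (37.1% and 50.5%), and 14, 4 and 10 with a separate spread per group (11.7% and 15.1%). Risen genes numbered 13 without a filter (11.9% of all genes) and fallen genes 10 with all 20 arrays in 1 model (26.6%). Leaving out 1 array gave 22 to 24 changed, 5 to 6 fallen and 17 to 19 risen. Among all genes 20.3% to 21.6% then fell and 24.4% to 26.3% rose. In mock-induced against parental vehicle cells 5 were called, 4 lower and 1 higher. The alternatives follow in that order, with the shares of all genes lower and higher in brackets. Poly-A centring gave 0, 0 and 0 (2.67% and 5.98%), and Benjamini-Hochberg adjustment 33, 22 and 11 (37.2% and 37.7%). A separate spread gave 2, 2 and 0 (4.04% and 4.91%). All 20 arrays gave 9, 8 and 1 (17.4% and 18.6%), and a trend 8, 6 and 2 (12.7% and 14.5%). Hybridization control centring (8.33% and 10.2%) and no filter (4% and 5.06%) each gave 3, 3 and 0. The mean of probe sets gave 5, 3 and 2 (10% and 12.9%). Without _s_at and _x_at probe sets the numbers were 4, 2 and 2 (10% and 14.4%). Leaving out 1 array gave 3 to 4, 3 to 4 and 0 (7.92% to 10.5% and 10.3% to 12.1%). The interaction (24 called, 6 lower and 18 higher) gave 8, 4 and 4 with hybridization control centring (19.4% and 10.6% of all genes). It gave 4, 2 and 2 with poly-A centring (9.17% and 4.64%), and 39, 16 and 23 with Benjamini-Hochberg adjustment (34.4% and 47.1%). With 1 array left out it gave 21 to 24, 5 to 6 and 16 to 18 (21% to 21.9% and 23.6% to 26.1%). The parental doxycycline comparison gave 0 throughout. With poly-A centring limma pooled the spread of all genes, so those calls rest on 1 common spread. The cause of these changes was not tested.

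Replicate numbers are shared between the groups, and treated and control cultures were run as pairs on each day, but the sources used here do not say that a number marks a day. Deviations of same-numbered induced and mock-induced arrays correlated at 0.02 to 0.22, over 0.1 in 4 of 5 pairs, and 6 of 10 arrays correlated best with their own number. With the replicate number as a block, 18 genes changed in that comparison (5 fell, 13 rose, beside 15.9% and 18.7% of all genes), 0 in mock-induced against parental vehicle cells (0 lower, 0 higher, beside 3.36% and 6.18%), and 18 in the interaction (5 lower, 13 higher, beside 18.3% and 19.8%). In the first comparison MAD1L1, ZW10, AURKA, CENPM, MIS12, CENPF, SGO2, NCAPH and ASPM lost their calls under the block, and CENPK gained one.

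The sign turned for single genes whose main difference was small: AURKB (−0.01 with the mean of probe sets, −0.15 with poly-A centring), NCAPG (0.01 without _s_at and _x_at probe sets), INCENP (−0.09 with hybridization and −0.33 with poly-A centring, −0.04 to 0.09 with 1 array left out), RACGAP1 (−0.10 and −0.34 with the 2 centrings, −0.02 to 0.06 with 1 array left out) and KNL1 (−0.07 with poly-A centring). CENPN, which was called, turned to −0.22, and to −0.15 in the interaction, and ANAPC7 to −0.90, without _s_at and _x_at probe sets. Hybridization control centring moved the median of all genes from 0.20 to 0.08 and that of the 46 to 0.28. Levels near 2.19 carry no order, which touches none of the 46.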

Other observations

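The probe set that names CENPA together with SLC35F6, left out of all counts, averaged 9.47 ± 0.13 on induced arrays, 9.71 ± 0.10 on mock-induced arrays, 10.92 ± 0.12 on arrays of parental cells with doxycycline and 10.85 ± 0.07 with vehicle (log2 GCRMA level, SD, n = 5 each). Which of the 2 genes it read was not tested. The intronic ZFP36 sites without the 7-base core lay in SMC4 (chr3:160119893-160119916) and in 2 introns of ASPM (chr1:197086796-197086818 and chr1:197101372-197101395, hg19).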
